A study of Danio rerio with 12 samples.

Results

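The cone phototransduction cascade was represented by genes whose symbol in the deposited table equals gnat2, gnb3b, gngt2a, gngt2b, pde6c, pde6h, grk7a, grk1b, arr3a or arr3b. Of these 10 symbols, 9 were present among 32057 genes, and all 9 passed the filter on low values that left 19821 genes for testing. The symbol pde6h did not occur in the table. A gene named pde6ha, described there as paralog a of PDE6H and listed by RefSeq with pde6h as an older name, lies outside the rule and is given separately, as a gene chosen after its values were seen. A reference table of symbols gives PDE6H for another gene, which the deposited table calls pde6ga. That gene stayed on the rod list under its deposited symbol and, with 0.136 to 0.881 CPM over the 12 libraries, did not pass the filter.

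The samples were whole wild-type zebrafish embryos kept with methylmercury (MeHg), a neurotoxic organomercury, at 6, 30 or 50 µg/L between 4 and 72 hours post-fertilisation (hpf). Controls had 0 µg/L over the same hours. Each of the 4 groups holds 3 samples, measured by sequencing of poly(A) RNA. Nothing in the labels tells whether samples of a group are separate clutches. The p-values therefore measure only the spread between these samples, which may be technical. RNA came from whole embryos, in which fewer cones and less RNA per cone cannot be told apart.

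In cones, light turns an opsin into an activator of transducin, a G protein made of an alpha, a beta and a gamma subunit. Transducin relieves phosphodiesterase 6 of its inhibitory subunit, the enzyme breaks down cyclic GMP, and the cyclic-nucleotide-gated channels close. Opsin kinases and arrestins then end the signal. Zebrafish larvae see mainly with cones in their first days, because rods mature later, and many of these genes exist as pairs of paralogs.

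Library totals ran from 15665053 to 22207603 counts. Control replicate 3 differed from the rest of its group. Across tested genes its rank correlation (Spearman) was 0.927 with control replicate 1 and 0.944 with control replicate 2, while those replicates reached 0.991 with each other. With the libraries at 6 µg/L it reached 0.966 to 0.973, against 0.933 to 0.966 for control replicates 1 and 2. The median log2 deviation from the mean of the 12 libraries, in the longest minus the shortest eighth of genes, was -0.07 to 0.19 in the 9 exposed libraries, and -0.61, -0.47 and 0.19 in control replicates 1, 2 and 3. Counts of member and list genes called over control are therefore also given without control replicate 3. Cones were present by their defining markers, since the cone opsins summed to 1458 to 1892 CPM (counts scaled by library size) in the controls.

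The cascade genes were lower in embryos exposed to MeHg. All 9 genes present were lower than control at 6, at 30 and at 50 µg/L (quasi-likelihood test of edgeR with Benjamini-Hochberg adjustment, threshold 0.05), and none was higher. Among all genes tested, 8.88% were called lower at 6 µg/L, 17.3% at 30 µg/L and 21.9% at 50 µg/L, and 4.81% were called lower at all 3 doses. The shares called higher were 5.48%, 13.4% and 17.6%. The 3 comparisons share their control libraries. The median log2 fold change of the 9 genes was -3.10 at 6 µg/L, -3.90 at 30 µg/L and -5.66 at 50 µg/L, while the median of all tested genes lay at -0.00, -0.04 and -0.04. In each gene every exposed library lay below every control library, a pattern that 13.8% of all tested genes showed at 6 µg/L, 20.1% at 30 µg/L and 23.0% at 50 µg/L. All 9 were also called lower when control replicate 3 was left out, where 27.9%, 32.2% and 32.1% of all genes were called lower at 6, 30 and 50 µg/L and 28.6%, 29.7% and 30.8% higher. With replicate 3 as the sole control they were again all lower, against 12.6%, 17.7% and 23.1% of all genes. The 9 genes passed the filter of a mean of 0.5 FPKM (a level per exonic length and library size) over the 12 libraries, but grk1b had a mean of only 0.482 FPKM over the 9 exposed ones and so passed through the controls.

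The summed level of the 9 genes was 1137, 958 and 1142 CPM in the controls, 156, 163 and 126 CPM at 6 µg/L, then 84.3, 111 and 89.8 CPM at 30 µg/L and 23.1, 29.6 and 29.6 CPM at 50 µg/L. No group overlapped another, and control replicate 3 was not apart from the other controls in this sum.

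**Figure D1:**
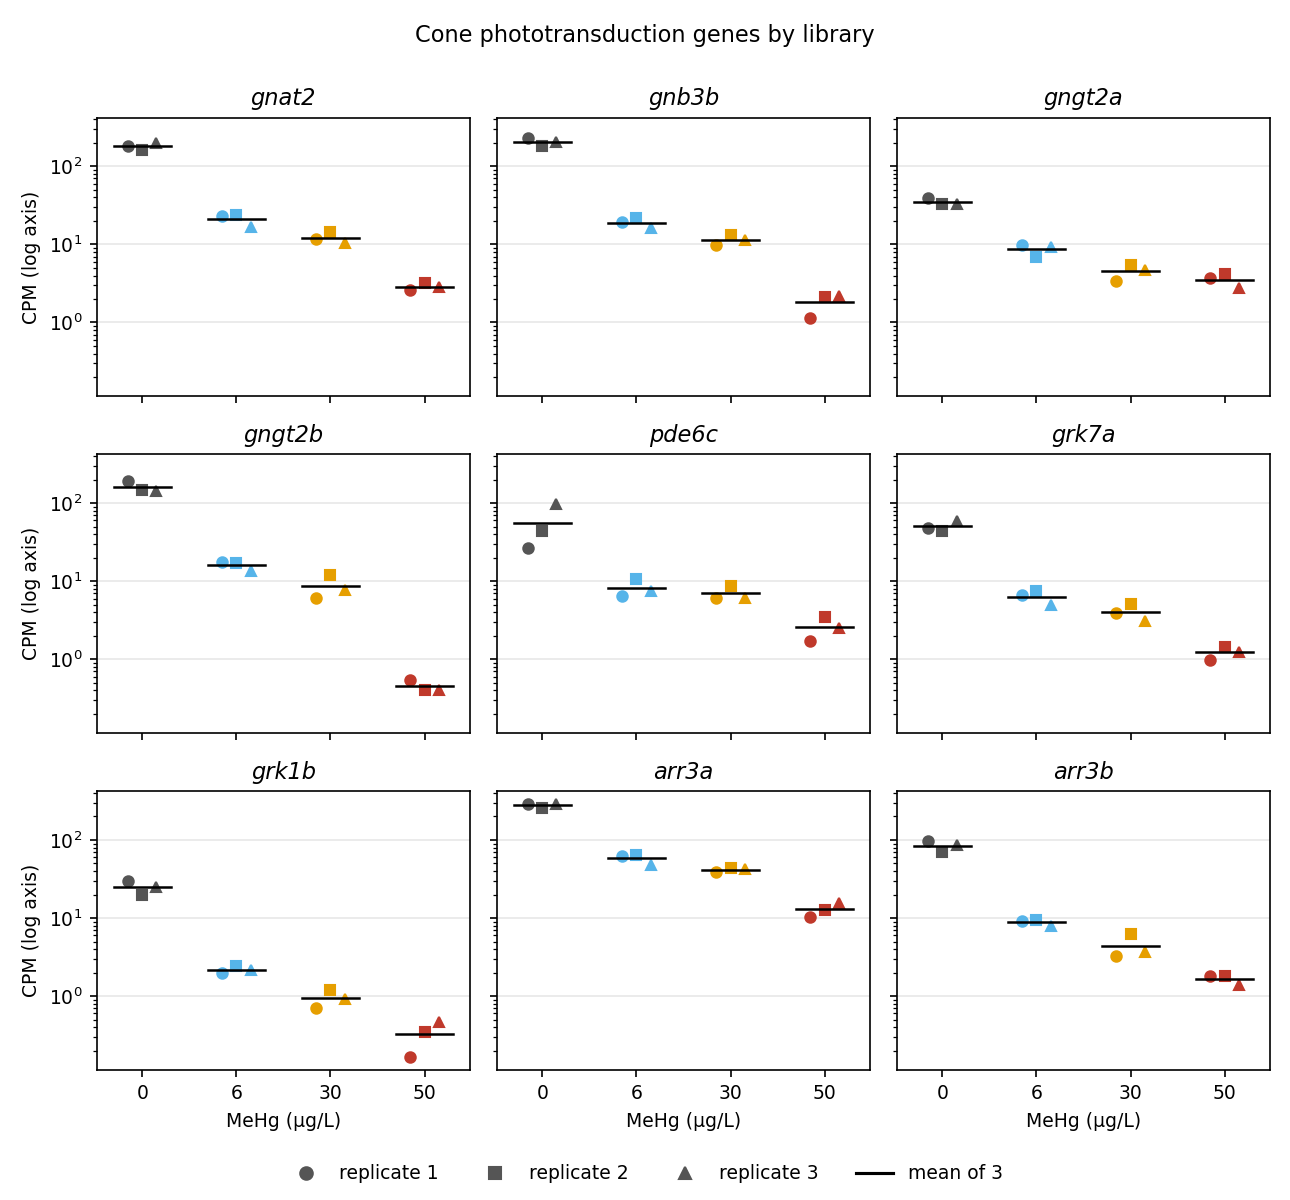
Level of each cascade gene (CPM, log axis) in the 12 libraries against the MeHg concentration (µg/L); markers are libraries by replicate and short lines are group means. Control libraries lie above all exposed libraries in each panel, and gngt2b drops to between 0.406 and 0.55 CPM at 50 µg/L.

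The transducin subunits gngt2b and gnb3b had the largest changes among the members at 50 µg/L, and gngt2a the smallest. The alpha subunit gnat2 (ENSDARG00000042529, chromosome 8, 25225590 to 25247284, minus strand, GRCz11), which carries the signal from opsin to phosphodiesterase in cones, had 183, 161 and 200 CPM in the controls, 23.1, 23.5 and 16.7 CPM at 6 µg/L, then 11.8, 14.5 and 10.4 CPM at 30 µg/L and 2.58, 3.25 and 2.82 CPM at 50 µg/L. Each dose step lay below the one before it without overlap. Over control, its log2 fold change was -3.10 ± 0.17 (SE, adjusted p = 1.1e-06, edgeR) at 6 µg/L, -3.90 ± 0.17 (adjusted p = 1.7e-07, edgeR) at 30 µg/L and -5.98 ± 0.20 (adjusted p = 6.0e-09, edgeR) at 50 µg/L. The last value leaves 1.59% of the control level.

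The beta subunit gnb3b (ENSDARG00000002696, chromosome 19, 5106226 to 5135345, minus strand) anchors the alpha subunit together with gamma. It had 233, 184 and 206 CPM in the controls, 19.2, 21.6 and 16.1 CPM at 6 µg/L, then 9.76, 13.2 and 11.3 CPM at 30 µg/L and 1.15, 2.15 and 2.20 CPM at 50 µg/L. The 4 groups did not overlap. At 50 µg/L it was 113-fold lower than control (log2 fold change -6.82 ± 0.24, adjusted p = 6.0e-09, edgeR). Its paralog gnb3a, not a member, followed another course, with 111 ± 3.61 CPM at 6 µg/L against 101 ± 13.2 CPM in controls (SD, n = 3 each; log2 fold change 0.14 ± 0.10, edgeR adjusted p = 0.36). At 50 µg/L gnb3a was lower, at 15 ± 0.377 CPM, with a log2 fold change of -2.75 ± 0.11 (adjusted p = 1.1e-08, edgeR).

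Among the pairs of members compared, the gamma subunits differed most from each other in their change at 50 µg/L. gngt2b (ENSDARG00000103543, chromosome 12, 3249054 to 3252263, minus strand) had 191, 148 and 143 CPM in the controls, 17.7, 17.2 and 13.4 CPM at 6 µg/L, then 6.15, 12 and 7.67 CPM at 30 µg/L and 0.55, 0.406 and 0.41 CPM at 50 µg/L. The 3 libraries at 50 µg/L held 10, 7 and 8 reads of it. That is 348-fold below control (log2 fold change -8.44 ± 0.31, adjusted p = 8.4e-09, edgeR) or 0.288% of the control level, the largest change of any member. Its log2 fold change at 6 µg/L was -3.31 ± 0.22 and at 30 µg/L -4.23 ± 0.23.

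gngt2a (ENSDARG00000010680, chromosome 3, 23092762 to 23096141, plus strand) changed least among the members at 6 and 50 µg/L. It had 39.3, 33.2 and 33.1 CPM in the controls, 9.70, 6.90 and 9.28 CPM at 6 µg/L, then 3.43, 5.53 and 4.64 CPM at 30 µg/L and 3.74, 4.12 and 2.77 CPM at 50 µg/L. The libraries at 30 and 50 µg/L overlapped, and both lay below those at 6 µg/L. At 50 µg/L, 10.1% of the control level was left (log2 fold change -3.31 ± 0.21, adjusted p = 3.8e-07, edgeR), against 24.5% at 6 µg/L (-2.03 ± 0.19, adjusted p = 4.9e-05, edgeR).

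The catalytic subunit of cone phosphodiesterase, pde6c (ENSDARG00000100397, chromosome 12, 5129245 to 5154099, plus strand), hydrolyses cyclic GMP. It had 26.5, 43.9 and 96.6 CPM in the controls, 6.41, 10.6 and 7.51 CPM at 6 µg/L, then 6.15, 8.76 and 6.15 CPM at 30 µg/L and 1.70, 3.48 and 2.51 CPM at 50 µg/L. Control libraries spread 3.64-fold, against at most 1.5-fold for every other member, and control replicate 3 was 2.75 times the mean of the other controls. The log2 fold change over control was -2.76 ± 0.41 (adjusted p = 0.001, edgeR) at 6 µg/L, -2.99 ± 0.41 (adjusted p = 2.6e-04, edgeR) at 30 µg/L and -4.44 ± 0.46 (adjusted p = 1.5e-05, edgeR) at 50 µg/L. Without control replicate 3 these values were -2.11, -2.36 and -3.80, again past the threshold.

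The inhibitory subunit that holds this enzyme in check is encoded by PDE6H. pde6ha (ENSDARG00000102558, chromosome 6, 344423 to 346084, minus strand), outside the rule, had 27.7, 20.9 and 11.6 CPM in the controls, 2.56, 2.36 and 1.28 CPM at 6 µg/L, then 0.704, 1.38 and 0.505 CPM at 30 µg/L and 0.989, 0.464 and 1.79 CPM at 50 µg/L. It was below control at each dose (log2 fold change -3.25 ± 0.43, -4.56 ± 0.47 and -4.18 ± 0.46 at 6, 30 and 50 µg/L, edgeR adjusted p of 4.7e-04, 3.3e-05 and 2.7e-05). The exposed groups overlapped one another. In control replicate 3 it stood at 0.478 times the mean of the other controls, the opposite side from pde6c. Without that library the 3 log2 fold changes were -3.53, -4.86 and -4.45.

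Opsin kinases phosphorylate light-activated opsin and so begin its shut-off. The cone kinase grk7a (ENSDARG00000020602, chromosome 2, 16536453 to 16544343, plus strand) had 47.8, 44.6 and 59.8 CPM in the controls, 6.58, 7.44 and 4.95 CPM at 6 µg/L, then 3.94, 5.13 and 3.12 CPM at 30 µg/L and 0.989, 1.45 and 1.23 CPM at 50 µg/L. The libraries at 6 and 30 µg/L overlapped, and those at 50 µg/L lay below them. The log2 fold change over control was -3.00 ± 0.20 at 6 µg/L, -3.65 ± 0.21 at 30 µg/L and -5.37 ± 0.24 at 50 µg/L (edgeR adjusted p = 4.7e-06, 5.7e-07 and 2.7e-08).

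grk1b (ENSDARG00000104685, chromosome 5, 54161362 to 54197084, minus strand), the other opsin kinase of the group, had the lowest mean FPKM of the members in every group. It had 29.6, 19.8 and 24.7 CPM in the controls, 1.95, 2.40 and 2.14 CPM at 6 µg/L, then 0.704, 1.21 and 0.918 CPM at 30 µg/L and 0.165, 0.348 and 0.461 CPM at 50 µg/L. The 4 groups did not overlap. Its log2 fold change at 50 µg/L was -6.21 ± 0.29 (adjusted p = 4.1e-08, edgeR), which leaves 1.35% of the control level.

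Arrestins cap the phosphorylated opsin. arr3a (ENSDARG00000056511, chromosome 10, 26800213 to 26811397, plus strand), in zebrafish the arrestin of red and green cones, had 291, 254 and 291 CPM in the controls, 62.0, 63.8 and 48.3 CPM at 6 µg/L, then 39.1, 44.2 and 42.0 CPM at 30 µg/L and 10.4, 12.6 and 15.8 CPM at 50 µg/L. Its mean CPM was the highest of the members in every group, and its mean FPKM was the highest at every exposed dose. At 6 µg/L it had 20.8% of control (log2 fold change -2.26 ± 0.15, adjusted p = 4.7e-06, edgeR). At 50 µg/L 4.65% was left (-4.43 ± 0.17, adjusted p = 8.4e-09, edgeR).

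arr3b (ENSDARG00000098475, chromosome 14, 32837914 to 32850768, plus strand), the arrestin of blue and ultraviolet cones in zebrafish, had 95.7, 69.6 and 87.1 CPM in the controls, 9.03, 9.39 and 8 CPM at 6 µg/L, then 3.29, 6.23 and 3.67 CPM at 30 µg/L and 1.81, 1.80 and 1.38 CPM at 50 µg/L. The groups did not overlap. At 50 µg/L its log2 fold change was -5.66 ± 0.25 (adjusted p = 2.0e-08, edgeR), which leaves 1.98% of the control level.

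**Figure D2:**
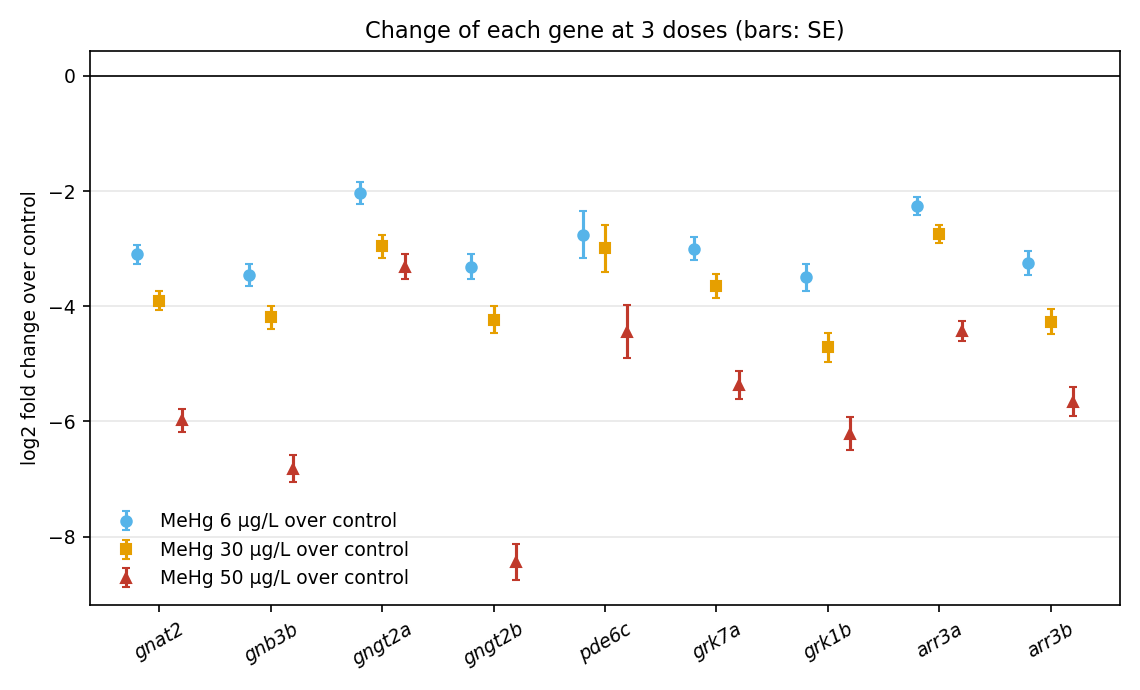
Log2 fold change over control of each cascade gene at 6, 30 and 50 µg/L MeHg (edgeR, bars are ± 1 SE). Every value lies below 0, from -2.03 for gngt2a at 6 µg/L to -8.44 for gngt2b at 50 µg/L.

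Between doses, 7 of the 9 genes were lower at 30 than at 6 µg/L, where 8.44% of all genes were called lower. The median log2 fold change was -0.79 over the 9 genes and -0.01 over all tested genes. grk1b (-1.21 ± 0.27, adjusted p = 0.01, edgeR) and arr3b (-1.02 ± 0.22, adjusted p = 0.0077, edgeR) had the largest such falls, and arr3a (-0.48 ± 0.15, adjusted p = 0.048, edgeR) lay just inside the threshold. pde6c (-0.23 ± 0.41, adjusted p = 0.76, edgeR) and grk7a (-0.65 ± 0.21, adjusted p = 0.055, edgeR) were not called. This count is the least stable, with 2 to 8 genes called over 25 alternatives. Over these alternatives 4.71% to 36.1% of all genes were called in either direction. The count of members was 3 without MeHg 30 µg/L replicate 1, 4 without MeHg 30 µg/L replicate 3 and 4 without MeHg 6 µg/L replicate 1.

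At 50 against 30 µg/L, 7 of 9 genes were again lower, against 4.44% of all genes. The median was -1.69 for the 9 genes and -0.01 for all tested genes. gngt2b fell by 4.21 ± 0.32 on the log2 scale (adjusted p = 1.4e-05, edgeR), gnb3b fell by 2.63 ± 0.22 and gnat2 fell by 2.08 ± 0.18. gngt2a was not called (-0.35 ± 0.21, adjusted p = 0.38, edgeR). pde6c missed the threshold too (-1.45 ± 0.45, adjusted p = 0.066, edgeR), although its groups did not overlap. At 50 against 6 µg/L all 9 were lower, with 12.9% of all genes called lower.

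Ratios between pairs of members within a library do not depend on library scaling. With 4 ratios tested by an exact permutation test over all 369600 assignments of libraries to groups (one-way F statistic, any difference between groups, smallest possible p 6.5e-05, adjusted over the 5 ratios planned), 3 differed between the groups. The log2 count ratio of gngt2a to gngt2b was -2.28, -2.15 and -2.11 in the controls, -0.86, -1.32 and -0.53 at 6 µg/L, -0.84, -1.11 and -0.72 at 30 µg/L, then 2.71, 3.25 and 2.68 at 50 µg/L (exact permutation p = 5.8e-04, adjusted p = 0.0029). The ratio was higher in every exposed library than in any control, and at 50 µg/L reads of gngt2a outnumbered those of gngt2b.

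The log2 ratio of arr3a to arr3b averaged 1.74 ± 0.13 in controls, 2.71 ± 0.10 at 6 µg/L, 3.30 ± 0.41 at 30 µg/L and 2.93 ± 0.51 at 50 µg/L (SD, n = 3 each; exact permutation p = 0.0037, adjusted p = 0.0062). All 9 exposed libraries, from 2.50 to 3.56, lay above the controls, from 1.60 to 1.87. The libraries at 30 µg/L, from 2.82, lay just above those at 6 µg/L, up to 2.78, while those at 50 µg/L overlapped both. The log2 ratio of gnb3b to gnat2 averaged 0.19 ± 0.15 in controls, -0.15 ± 0.11 at 6 µg/L, -0.10 ± 0.20 at 30 µg/L and -0.70 ± 0.41 at 50 µg/L (SD, n = 3 each; exact permutation p = 0.0021, adjusted p = 0.0054). The log2 ratio of grk7a to grk1b was 0.87 higher at 50 µg/L, at 1.91 ± 0.52, than in controls, at 1.05 ± 0.31 (SD, n = 3 each), and over the 4 groups it missed the threshold after adjustment (exact permutation p = 0.044, adjusted p = 0.056). How the counting treated reads shared by paralogs is not given in the sources used here, which bears on the paralog ratios.

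**Figure D3:**
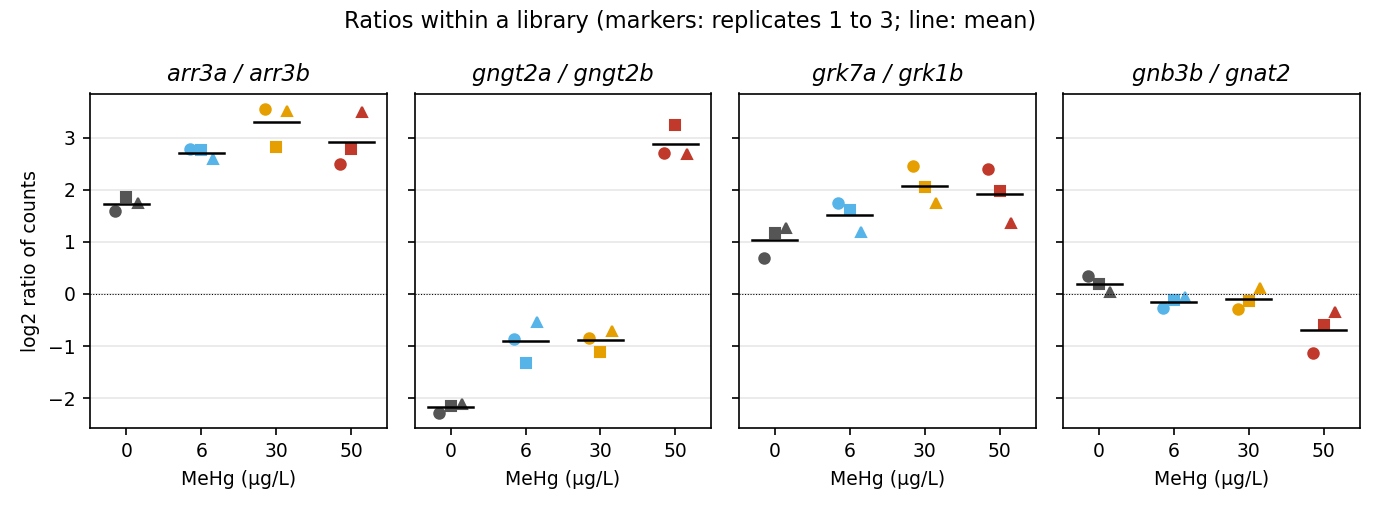
Log2 ratio of read counts for 4 pairs of cascade genes in each library against the MeHg concentration (µg/L); markers are libraries by replicate and short lines are group means. The gngt2a to gngt2b ratio crosses 0 at 50 µg/L, where its 3 libraries lie between 2.68 and 3.25.

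The order of levels within the cascade changed with these unequal falls. Per length, control embryos had gngt2b at 272 ± 34.3 FPKM, arr3a at 160 ± 22.5, gnb3b at 77.7 ± 10.6, gnat2 at 69.7 ± 13.2 and gngt2a at 52.7 ± 4.52 FPKM (SD, n = 3). Only gnb3b and gnat2 overlapped among these neighbours. Below them arr3b (20.1 ± 3.77 FPKM), grk7a (15 ± 3.74), pde6c (12.6 ± 9.37) and grk1b (9.98 ± 2.06) each overlapped the next.

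At 6 µg/L arr3a came first (35.7 ± 5.73 FPKM), overlapping gngt2b (29.4 ± 4.54 FPKM), followed by gngt2a (13.9 ± 2.15 FPKM). At 30 µg/L the same genes led in the same order, at 23.6 ± 1.41, 14.4 ± 5 and 6.7 ± 1.55 FPKM. At 50 µg/L arr3a had 7.31 ± 1.48 FPKM and gngt2a 5.26 ± 1.07 FPKM, which overlapped. Every other member stood at 1.09 FPKM (gnat2) or less there, down to 0.13 ± 0.0557 FPKM for grk1b. gngt2b, first in controls, came after arr3a, gngt2a and gnat2 at 50 µg/L with 0.767 ± 0.142 FPKM.

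As a share of the summed FPKM of the 9 genes, gngt2b made up 39.5% ± 3.55 in controls, 28.7% ± 0.906 at 6 µg/L, 24.6% ± 4.19 at 30 µg/L and 4.71% ± 1.31 at 50 µg/L (SD, n = 3 each). gngt2a took 31.9% ± 6.88 at 50 µg/L, against 7.67% ± 0.355 in controls. arr3a took 44.1% ± 7.29 at 50 µg/L, against 23.2% ± 1.27 in controls. Of the summed FPKM of both gamma subunits, gngt2b held 12.9% ± 2.44 at 50 µg/L and 83.7% ± 0.844 in controls. These shares describe the same falls as the ratios and add no separate test.

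**Figure D4:**
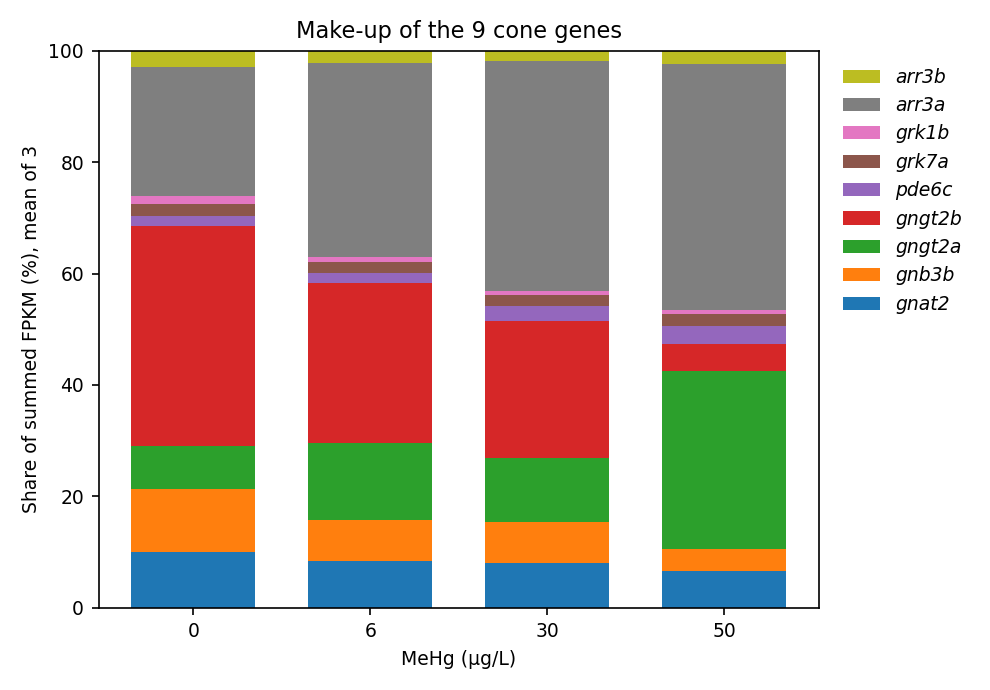
Share of each cascade gene in the summed FPKM of the 9 genes (%), as group means, against the MeHg concentration (µg/L). gngt2b is the largest share in controls (39.5%), while arr3a (44.1%) and gngt2a (31.9%) are the largest at 50 µg/L.

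The genes around the cascade were described from lists of the pathway. Of 8 cone opsins, the light receptors upstream of transducin, 5 passed the filter and all 5 were lower at each dose, with medians of -3.22, -4.07 and -7.07 at 6, 30 and 50 µg/L. The ultraviolet opsin opn1sw1 averaged 1.61 ± 0.6 CPM at 50 µg/L against 678 ± 83 CPM in controls (SD, n = 3 each; log2 fold change -8.72 ± 0.34, adjusted p = 8.4e-09, edgeR). The blue opsin opn1sw2 fell by 7.07 ± 0.29 and the red opsin opn1lw2 fell by 6.05 ± 0.24 on the log2 scale. The green opsin opn1mw1 fell by 9.76 ± 0.40, with the reservation that the treatment of reads shared between green opsin genes is not given. These counts of 5 lower at each dose were the same without control replicate 3. They lie beside 8.88%, 17.3% and 21.9% of all genes called lower, and 27.9%, 32.2% and 32.1% without that library.

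Of 14 genes of the channel, guanylate cyclase and calcium feedback, 5 passed the filter, and 4, 5 and 5 were lower at 6, 30 and 50 µg/L (medians -1.75, -1.78 and -3.52), with 2 of the 5 under the filter's minimum in the exposed libraries alone. The channel subunit cnga3a averaged 16 ± 2.29 CPM in controls, 4.74 ± 0.362 CPM at 6 µg/L, 3.12 ± 0.508 CPM at 30 µg/L, then 1.4 ± 0.388 CPM at 50 µg/L (SD, n = 3 each). At 50 µg/L its log2 fold change was -3.52 ± 0.22 (adjusted p = 3.2e-07, edgeR). The channel subunit cngb3.2 fell by 3.45 ± 0.35 and the cyclase gene gucy2d fell by 4.11 ± 0.53 on the log2 scale at 50 µg/L. Without control replicate 3 the values at 50 µg/L were -2.89 for cngb3.2 and -3.21 for gucy2d. At 6 µg/L they were -0.65 and -1.27, against -1.21 and -2.18 with all controls. The list's counts of lower genes were 4, 4 and 5 without that library, where 27.9%, 32.2% and 32.1% of all genes were called lower. With all controls these shares were 8.88%, 17.3% and 21.9%.

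The list of 11 partners in shut-off and recovery also holds gnb3a, the paralog of transducin beta gnb3b described above. Of these 11 genes, 6, 8 and 8 were lower and 0 higher at 6, 30 and 50 µg/L. The medians were -1.16, -1.81 and -3.10, where -1.81 is also the value of gnb3a at 30 µg/L. Among those lower at each dose, rgs9a and rgs9bp were under the filter's minimum in the exposed libraries alone, at 0.206 and 0.316 FPKM, and passed through the controls. The recoverin gene rcvrn2, which restrains opsin kinase when calcium is high, averaged 10.3 ± 1.14 CPM at 50 µg/L against 145 ± 37.8 CPM in controls (SD, n = 3 each; log2 fold change -3.82 ± 0.19, adjusted p = 5.0e-08, edgeR). The recoverin gene rcvrna had a log2 fold change of -3.98 ± 0.25 at 50 µg/L, and gnb5b, which encodes a form of the beta subunit that pairs with RGS9, had -3.10 ± 0.15. Without control replicate 3 the counts of lower genes were 6, 8 and 8, and 2 genes were higher at 6 µg/L. In that setting 27.9%, 32.2% and 32.1% of all genes were called lower, and 28.6% were called higher at 6 µg/L. With all controls the lower shares were 8.88%, 17.3% and 21.9%.

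The rod counterparts of the cascade were lower by less in the median than the cascade genes. Of 14 rod genes, 9 passed the filter, and 6, 8 and 9 of them were lower at 6, 30 and 50 µg/L, with medians of -1.17, -1.72 and -2.22. Of these, pde6b (lower at each dose) and grk1a (lower at 30 and 50 µg/L) passed the filter only through the controls, with 0.433 and 0.391 FPKM in the exposed libraries. Rod transducin alpha, gnat1, averaged 2.28 ± 0.12 CPM at 50 µg/L against 33.5 ± 6.92 CPM in controls (SD, n = 3 each; log2 fold change -3.88 ± 0.21, adjusted p = 8.5e-08, edgeR). Rod transducin gamma, gngt1, fell by 3.89 ± 0.19, while the rod arrestin sagb fell by 2.08 ± 0.16 and the inhibitory subunit pde6gb fell by 1.32 ± 0.12. The gap between cone and rod genes was not tested. Without control replicate 3 the rod medians were -0.88, -1.41 and -1.85, and with it as the sole control -1.57, -2.60 and -2.45. With all controls the channel list had medians of -1.75, -1.78 and -3.52, and the shut-off list -1.16, -1.81 and -3.10. The summed rod genes were 42.9 to 49.4 CPM at 50 µg/L, against 183, 169 and 487 CPM in control replicates 1, 2 and 3. The rod opsin gene rho had 11.9, 17.1 and 261 CPM in the same controls, against 14.5 to 32.1 CPM at 6 µg/L. It had 18.5 to 28.9 CPM at 30 µg/L and 5.66 to 10.5 CPM at 50 µg/L. Without control replicate 3 the counts were 6, 8 and 8 lower and 1, 1 and 0 higher. In that setting 27.9%, 32.2% and 32.1% of all genes were called lower and 28.6%, 29.7% and 30.8% higher. With all controls the lower shares were 8.88%, 17.3% and 21.9%.

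Photoreceptor transcription factors were called in both directions. Of 10 genes, 0, 2 and 3 were lower and 1 was higher at each dose, with medians of 0.51, 0.01 and -0.24. Among all genes tested, 8.88%, 17.3% and 21.9% were called lower and 5.48%, 13.4% and 17.6% higher. crx, the homeobox factor that drives photoreceptor genes, averaged 10.2 ± 1.75 CPM at 50 µg/L against 13.9 ± 11.2 CPM in controls (SD, n = 3 each; log2 fold change -0.46 ± 0.43, not called). The crx controls were 5.69, 9.35 and 26.7 CPM in replicates 1, 2 and 3, and without replicate 3 its value at 50 µg/L turned to 0.42, again not called. neurod1 fell by 1.32 ± 0.09 at 50 µg/L (adjusted p = 7.1e-07, edgeR) and foxq2, a factor of blue cones in zebrafish, fell by 2.20 ± 0.34 (adjusted p = 3.3e-04, edgeR). tbx2b, needed for ultraviolet cones in zebrafish, rose by 0.60 ± 0.15 (adjusted p = 0.0071, edgeR). Without control replicate 3 the counts were 0, 3 and 4 lower and 6, 5 and 4 higher, with medians of 0.98, 0.47 and 0.39, where 56.5%, 61.8% and 62.8% of all genes were called in either direction. With replicate 3 as the sole control the medians were 0.03, -0.59 and -0.79.

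Markers of other retinal and eye cells were called in both directions, and their counts depended on control replicate 3. As RNA came from whole embryos, the levels of these marker genes, here and below, may include cells other than those named. Among all genes tested, 8.88%, 17.3% and 21.9% were called lower and 5.48%, 13.4% and 17.6% higher at 6, 30 and 50 µg/L. Without control replicate 3 these shares were 27.9%, 32.2% and 32.1% lower and 28.6%, 29.7% and 30.8% higher. The summed markers of bipolar cells, which receive the cone signal, were 125 to 135 CPM at 50 µg/L against 134 to 206 CPM in controls, and 1, 2 and 3 of 7 were lower and 1 higher at 6, 30 and 50 µg/L. Of these, cabp5b (lower at each dose) passed the filter only through the controls, with 0.393 FPKM in the exposed libraries. Without control replicate 3 the lower counts were equal and 3, 2 and 1 were higher. The bipolar medians were 0.03, -0.32 and -0.48. Without control replicate 3 they were 0.29, 0.16 and -0.11, and with it as the sole control -0.49, -0.74 and -1.08. Of 6 amacrine and horizontal cell markers 0, 1 and 1 were lower and 3, 0 and 0 higher, and of 7 ganglion cell markers 0, 1 and 2 were lower and 2, 1 and 1 higher. Without that library the lower counts were equal in both lists, while 5, 4 and 2 amacrine and horizontal cell markers and 5, 3 and 2 ganglion cell markers were higher. The amacrine and horizontal cell medians were 0.68, 0.26 and -0.10. Without that library they were 1.18, 0.63 and 0.20, and with it as the sole control 0.46, -0.32 and -0.67. The ganglion cell medians were 0.36, -0.11 and -0.48, then 0.43, 0.45 and -0.22, then 0.22, -0.54 and -0.67 in the same settings.

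Müller glia markers were lower in 2, 3 and 3 of 5 genes, led by rlbp1a, whose product carries retinoids in chromophore recycling (-2.01 ± 0.14 at 50 µg/L, adjusted p = 7.4e-07, edgeR). Pigment epithelium markers were lower in 1 of 4 genes at each dose. The pineal gland holds photoreceptors too, and of its 7 tested marker genes 0, 2 and 0 were lower and 1, 0 and 0 higher. Without control replicate 3 the Müller glia counts were 3, 4 and 4 lower and 2, 1 and 1 higher, the pigment epithelium counts 3, 2 and 2 lower and 0 higher, and the pineal counts 1, 4 and 2 lower and 2, 1 and 1 higher. The counts without that library lie beside 56.5%, 61.8% and 62.8% of all genes called in either direction. Those with all controls lie beside 8.88%, 17.3% and 21.9% of all genes called lower and 5.48%, 13.4% and 17.6% higher. The Müller glia medians were -0.03, -0.46 and -0.52 at 6, 30 and 50 µg/L. Without control replicate 3 they were -0.39, -0.51 and -0.61, and with it as the sole control -0.18, -0.29 and -0.36. The pigment epithelium medians were -0.50, -0.35 and -0.21, then -0.45, -0.35 and -0.20, then -0.64, -0.37 and -0.33 in the same settings. The pineal medians were -0.00, -0.35 and -0.08, then -0.12, -0.37 and 0.14, then -0.01, -0.38 and -0.02 in those settings.

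Lens and neuron markers moved with control replicate 3. The summed lens markers were 2246 to 2858 CPM in the exposed libraries, against 740, 986 and 2728 CPM in control replicates 1, 2 and 3. Of 7 lens genes 0, 1 and 2 were higher at 6, 30 and 50 µg/L, and 6 were higher at each dose without control replicate 3. Among all genes 5.48%, 13.4% and 17.6% were called higher, and 28.6%, 29.7% and 30.8% without that library. The lens medians were 0.88, 1.04 and 0.99. Without that library they were 1.70, 1.88 and 1.84, and with it as the sole control -0.04, -0.10 and -0.04. The summed neuron markers were 1311 to 1924 CPM in the exposed libraries, against 1223, 1326 and 2404 CPM in the same controls. Of 10 neuron genes 1, 4 and 5 were lower and none higher by edgeR, while without control replicate 3 they split into 2, 5 and 5 lower and 5, 5 and 5 higher. Among all genes 8.88%, 17.3% and 21.9% were called lower, and 27.9%, 32.2% and 32.1% without that library. The neuron medians were 0.06, -0.17 and -0.43. Without that library they were 0.42, 0.18 and -0.07, and with it as the sole control -0.27, -0.64 and -0.83. The part of these shifts in the levels of the cascade was not tested, and all 9 cascade genes were called lower over control with and without that library.

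**Figure D5:**
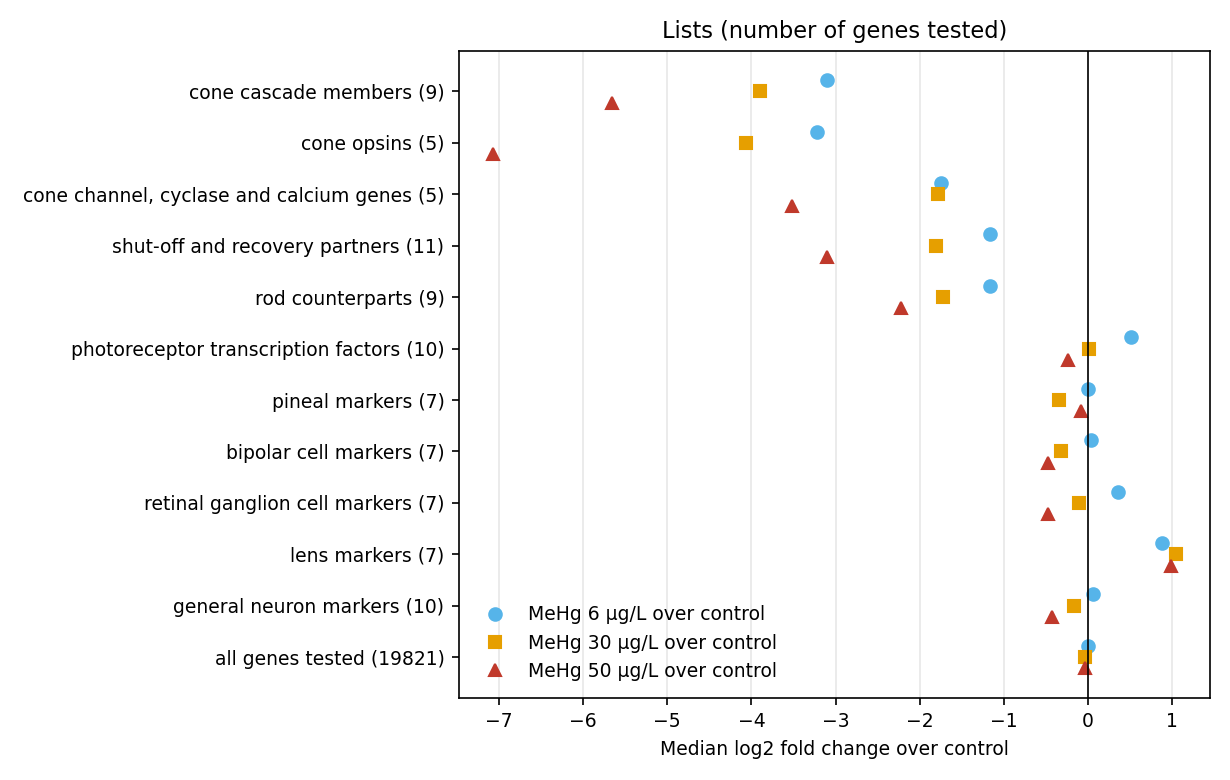
Median log2 fold change over control of 11 gene lists at 6, 30 and 50 µg/L MeHg (edgeR), with all tested genes for comparison. The cone opsins (-7.07) and the cascade (-5.66) lie lowest at 50 µg/L, and the lens list lies above 0, but at -0.04 when the controls are reduced to replicate 3.

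The genes outside these lists with the profile most like the mean of the cascade over the 12 libraries were picked by the root mean square difference of log2 CPM from control, among 19760 genes with a symbol. They were pdcb (0.384), prph2a (0.418), prph2b (0.423), cplx4a (0.64), pde6ha (0.86), cyp4v8 (0.896), nme2a (0.964) and rs1a (0.98). The product of pdcb is phosducin, which binds transducin beta and gamma, prph2a and prph2b encode peripherin 2 of the outer-segment discs, and rs1a encodes retinoschisin. prph2a averaged 0.69 ± 0.312 CPM at 50 µg/L against 59 ± 6.92 CPM in controls, and pdcb 0.885 ± 0.405 CPM against 43.3 ± 9.18 CPM (SD, n = 3 each). Within the cascade itself grk7a (0.173) lay nearest the mean profile, and gngt2a (1.17) and gngt2b (1.19) farthest, the first above it and the other below it at 50 µg/L. As these genes were chosen for their profile, no test is given here. The edgeR values given above for pde6ha belong to a gene chosen after its values were seen.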

How the data were processed

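RNA of 12 whole-embryo samples was measured in 4 groups of 3. The authors deposited 1 table that gives, for each gene and library, the unnormalized count of reads and the FPKM. Per the submitters' processing notes, with no role stated, the tools include HISAT2 2.0.1 with build GRCz11, HTSeq 0.6.1, cutadapt 1.9.1, FastQC 0.10.1 and DESeq2. Annotation release and strand setting: not given in the sources used here. Dividing each deposited count by exonic size and library total gave the authors' FPKM within rounding for 100% of values.

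Genes were kept where FPKM averaged 0.5 or more, and their counts were fitted for all 12 libraries with edgeR 4.0.16 in R 4.3.3 (TMM scaling, quasi-likelihood test, two-sided, Benjamini-Hochberg over all 19821 genes, adjusted p under 0.05). An approximate SE was taken as the log2 fold change over the root of the F statistic. CPM values are counts scaled to the TMM-adjusted total of tested genes. Ratios used log2 of (count + 0.5). The ratio of pde6h to pde6c could not be made, and the adjustment still counted it, as a ratio that was not called. Precision is limited by 3 libraries a group and, for the lowest values, by few reads.

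The members and lists were chosen with earlier results of these data known. The text names all members, up to 4 genes of each list with the smallest p (only part of them printed), and the 8 genes most like the members' mean profile. crx, rho and pde6ha were named after their values were seen. For 50 µg/L against control, on data simulated from the control means with 19808 genes, edgeR recovered 62 of 100 changes of 2-fold. It recovered 99 of 100 of 4-fold, and 6 of 167 calls were false. Only those genes were changed, all downward and all with enough reads in controls. In the real data many more genes were called, in both directions, so these rates may not carry over. Alternatives used DESeq2 1.42.0, limma 3.58.1 on log2(FPKM + 1) or log2(FPKM + 0.1), other scalings, filters and thresholds, a replicate block, and each library left out. List counts, shares of all genes called and list genes' fold changes without control replicate 3, or with it as the only control, were chosen after seeing the data. One gene chosen by the rule is not reported here.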

Additional observations from a re-analysis of the deposited data

How the results depend on the processing

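The 9 members were called lower than control at 6, 30 and 50 µg/L under each of 26 alternatives. At 50 against 6 µg/L 8 to 9 were called, and at 50 against 30 µg/L 5 to 8. Over the same alternatives 7.38% to 45.5% and 3.36% to 29.7% of all genes were called in either direction. For 30 over 6 µg/L this share ran from 4.71% to 36.1%. At 30 against 6 µg/L the 7 calls became 3 at an adjusted p under 0.01, 2 where a 2-fold change was also required, and 3 to 8 with a library left out (without MeHg 30 µg/L replicate 1 at the low end; the cause was not tested). The log2 ratio of grk7a to grk1b at 50 µg/L minus control (0.87) passed the threshold with FPKM + 0.1 (0.43), with the replicate block (0.87) and without MeHg 30 µg/L replicate 3 or MeHg 50 µg/L replicate 1 or 3 (0.62 to 1.14); the cause was not tested. The 30 over 6 µg/L value of pde6c moved to 0.00 without MeHg 6 µg/L replicate 2 and spanned -0.41 to 0.00 with single libraries left out, and the 50 over 30 µg/L value of pde6ha to -0.20 without MeHg 50 µg/L replicate 3; neither was called. With library totals only, the median log2 fold change of all genes was -0.13 for 30 and for 50 over 6 µg/L, and with limma on log2(FPKM + 0.1) it was 0.12 for 6 µg/L over control. Over control at 6 µg/L, calls split into 1760 lower and 1086 higher, and into 1362 lower and 1393 higher with library totals only. The split was 1673 and 1413 for 30 over 6 µg/L (2870 and 995 with library totals only), 2559 and 2202 for 50 over 6 µg/L (3701 and 1560) and 3438 and 2665 for 30 µg/L over control (3855 and 1960). The share of all genes called at 6 µg/L over control ran from 2.76% with only the compared groups fitted to 56.5% without control replicate 3. At 30 and 50 µg/L over control it ran from 8.31% to 61.8% and from 12.7% to 62.8%.

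The labels do not say whether replicate numbers pair the samples. Correlations between libraries of different groups, taken on log2 deviations from the own group's mean, cannot settle this, as same-number and other pairs overlapped. Of 18 same-number pairs 8 correlated above 0.1 (-0.323 to 0.443, against -0.483 to 0.377 in other pairs). The best correlation was with a library of the same number in 6 of 12 libraries. With the replicate block, 9 members were called at each dose over control, 6 at 30 over 6 µg/L (arr3a lost), 8 at 50 over 30 µg/L (pde6c gained) and 9 at 50 over 6 µg/L. The shares of all genes called with the block lie within the ranges given above. On the log2(FPKM + 1) scale the pseudocount shrinks low genes, as for grk1b at 50 µg/L (-3.26, against -6.21 in edgeR). Depth limits gngt2b and grk1b at 50 µg/L, which rest on few reads per library.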
